A study of Rattus norvegicus with 304 samples.

Results

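Aldh3a1 encodes aldehyde dehydrogenase 3A1, and its transcript was measured by real-time PCR in rat liver in animals given TCDD, a dioxin, once by gavage. The gene was found by its symbol in both deposited fold change tables, as 1 of 49 targets on the OpenArray, a plate of preloaded nanolitre PCR wells, and as 1 of 39 on the 7900HT, a plate-based PCR instrument. Over both platforms 50 different genes have fold changes. Aldh3a1 is listed in all 36 groups of each table, which gives 72 group values in all. The RefSeq gene table for GRCr8 holds it as gene 25375, a protein-coding gene whose nearest protein-coding neighbours are Usp22 and Aldh3a2. Its assay on the OpenArray is Rn00694669_m1.

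All rats were males aged 10 to 12 weeks of the strain Long-Evans, which the series design calls sensitive to TCDD, or Han/Wistar, which it calls resistant. Long-Evans rats received 0.001, 0.01, 0.1, 1, 10, 50, 100 or 1000 µg/kg TCDD with liver taken at 19 h, or 100 µg/kg with liver taken at 3, 6, 10, 19, 96 or 240 h, and their corn oil groups were taken at 19, 96 and 240 h. Han/Wistar rats received 0.001, 0.01, 0.1, 1, 10, 100, 1000 or 3000 µg/kg TCDD with liver taken at 19 h, or 100 µg/kg with liver taken at 1.5, 3, 6, 10, 19, 96, 240 or 384 h, and their corn oil groups were taken at 1.5, 19, 96, 240 and 384 h. The labels list 3 to 7 samples for each group on each platform, 304 in all, and 150 sample titles occur on both platforms. They count 150 samples on the OpenArray and 154 on the 7900HT. Some groups thus hold a replicate on the 7900HT alone, among them the Han/Wistar corn oil groups at 19, 96 and 384 h. Each table holds 1 value for a gene in a group, the log2 ratio to the strain's own corn oil group at 19 h, so a value of 1 is a doubling and corn oil at 19 h is 0 by construction. The log base and the direction are inferred, since no header states them. The spread between animals is not in these values, and every test below takes the group as its unit.

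ALDH3A1 oxidises aromatic and medium-chain aldehydes to the corresponding acids, and it is known as an abundant enzyme of the mammalian cornea. In the liver of untreated rats its transcript is scarce. TCDD binds the aryl hydrocarbon receptor (AHR), which moves to the nucleus, pairs with ARNT and binds xenobiotic response elements near its target genes. Aldh3a1 belongs to the set of these targets known as the AHR gene battery, with Cyp1a1, Cyp1a2, Nqo1 and others.

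On the OpenArray, Aldh3a1 was high in both strains from 1 µg/kg upward and rose further up to 100 µg/kg. In Long-Evans livers it stood at -6.10, -5.55, -2.46, 3.57, 8.16, 9.30, 9.64 and 9.07 log2 units at 0.001, 0.01, 0.1, 1, 10, 50, 100 and 1000 µg/kg and 19 h in the authors' deposited table. The 5 groups from 1 µg/kg up lay above every Long-Evans corn oil group, and the groups at 0.001 and 0.01 µg/kg lay below every one. In Han/Wistar livers it stood at 1.10, -2.86, -0.51, 5.45, 8.70, 10.54, 9.89 and 10.35 log2 units at 0.001, 0.01, 0.1, 1, 10, 100, 1000 and 3000 µg/kg in the authors' deposited table. Here too the 5 groups from 1 µg/kg up lay above every corn oil group, while the 3 lower doses lay within the corn oil range. The corn oil groups at 19, 96 and 240 h were at 0, 1.87 and -3.26 in Long-Evans livers, from the authors' deposited table. Those at 1.5, 19, 96, 240 and 384 h were at -3.33, 0, 1.38, 2.62 and -3.54 in Han/Wistar livers, from the authors' deposited table. On a linear scale, with base 2, the groups at 100 µg/kg and 19 h correspond to 796-fold in Long-Evans and 1490-fold in Han/Wistar.

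The steepest part of the curve was the step between 0.1 and 1 µg/kg. The value at 1 µg/kg exceeded that at 0.1 µg/kg by 6.03 log2 units in Long-Evans and 5.96 in Han/Wistar. The step between 1 and 10 µg/kg added 4.59 in Long-Evans and 3.25 in Han/Wistar. The group at 1000 µg/kg stood below the one at 100 µg/kg in both strains, by a difference of -0.56 in Long-Evans and -0.65 in Han/Wistar, and these neighbours differ by less than the spread of the corn oil groups. Among the 49 targets Aldh3a1 ranked first at 50 and 100 µg/kg in Long-Evans and second at each dose from 1 to 3000 µg/kg in Han/Wistar. At the low end it ranked last at 0.01 and 0.1 µg/kg in Long-Evans and last of the 48 targets listed at 0.001 µg/kg.

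Aldh3a1 rose with dose in both strains on the OpenArray. Spearman's rho against log10 dose was 0.93 in Long-Evans (two-sided exact permutation test over 8 groups, p = 0.00223, adjusted p = 0.00684) and 0.86 in Han/Wistar (exact permutation p = 0.0107, adjusted p = 0.0219), with Benjamini-Hochberg adjustment over all 49 targets. In the same tests 53.1% of all targets were called higher with dose in Long-Evans and 38.8% in Han/Wistar, so a call by itself does not set Aldh3a1 apart. Over the targets listed in every group, the median of a TCDD group lay between -0.17 and 1.00 log2 units in Long-Evans and between -0.25 and 0.44 in Han/Wistar, and Aldh3a1 kept its calls in both arms and strains when each group was centred on the median or mean of its targets. Pearson's r was 0.96 in Long-Evans (exact permutation p = 0.000174, adjusted p = 0.00243) and 0.90 in Han/Wistar (exact permutation p = 0.00387, adjusted p = 0.00998). Without the 2 doses farthest from the median, r was 0.99 in Long-Evans and 0.95 in Han/Wistar. The Han/Wistar call was lost when the group at 0.01, 0.1, 1 or 10 µg/kg was left out, with rho between 0.79 and 0.86 and an adjusted exact permutation p between 0.0530 and 0.0871.

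In the OpenArray time arm, Aldh3a1 was high within hours of 100 µg/kg TCDD and remained so to the last time sampled. In Long-Evans it stood at 6.41, 7.65, 8.62, 9.64, 10.24 and 10.83 log2 units at 3, 6, 10, 19, 96 and 240 h in the authors' deposited table, all above the corn oil groups. Each time in Long-Evans stood above the one before it. In Han/Wistar it stood at 2.36, 7.83, 8.81, 9.30, 10.54, 10.54, 10.69 and 10.54 log2 units at 1.5, 3, 6, 10, 19, 96, 240 and 384 h in the authors' deposited table. The group at 1.5 h was inside the corn oil range, since corn oil at 240 h was higher, and the other 7 groups were above it. The group at 3 h stood 5.47 log2 units above that at 1.5 h in Han/Wistar, the widest step of its time course. From 19 h on the 4 Han/Wistar groups lay between 10.54 and 10.69, whereas the 3 Long-Evans groups lay between 9.64 and 10.83.

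On the OpenArray the mean of the groups given 100 µg/kg was 8.90 in Long-Evans, against -0.46 for corn oil. The difference was 9.36 log2 units between 6 and 3 groups. In Han/Wistar the means were 8.83 for TCDD and -0.57 for corn oil, a difference of 9.40 between 8 and 5 groups. Both differences passed the two-sided exact permutation test over all ways of dividing the groups, with p = 0.0119 (adjusted p = 0.0365) in Long-Evans, the smallest p its 84 splits allow, and p = 0.00155 (adjusted p = 0.0104) in Han/Wistar. Of the 49 targets, 30.6% were called higher in Long-Evans and 53.1% in Han/Wistar, and the difference for Aldh3a1 ranked first among all targets in both strains. In Long-Evans the call was lost without any 1 of the corn oil groups, or without the TCDD group at 6, 10, 19 or 96 h, with adjusted exact permutation p between 0.0515 and 0.109 and a difference of 7.96 to 10.53 log2 units.

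**Figure D1:**
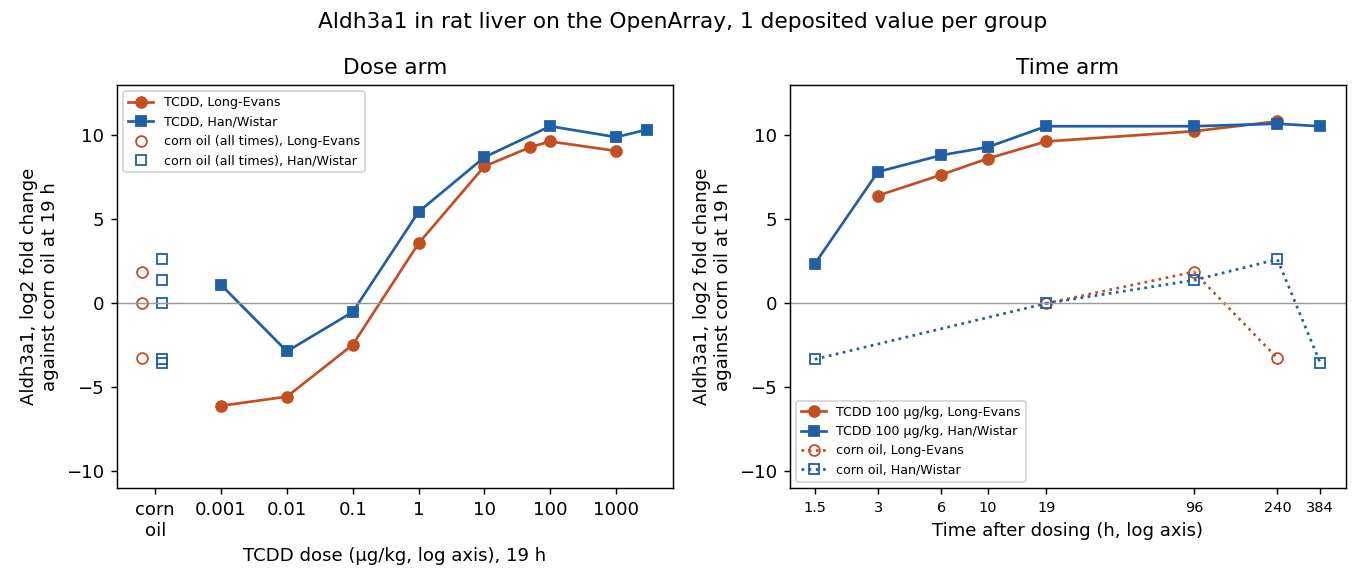
Aldh3a1 on the OpenArray, as log2 fold change against the strain's own corn oil group at 19 h, with 1 point per group. Left, the 19 h groups by TCDD dose with the corn oil groups of all times at the low end; right, the 100 µg/kg groups and corn oil groups by time. From 1 µg/kg up all points lie above the corn oil points of their strain, and at 100 µg/kg all but the 1.5 h point of Han/Wistar do.

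Corn oil of the same time is a closer comparison where it exists. On the OpenArray all 3 pairs in Long-Evans and all 5 in Han/Wistar were higher in TCDD. The difference of TCDD minus corn oil was 9.64, 8.37 and 14.10 log2 units at 19, 96 and 240 h in Long-Evans. It was 5.68, 10.54, 9.16, 8.07 and 14.08 at 1.5, 19, 96, 240 and 384 h in Han/Wistar. The largest differences, at 240 h in Long-Evans and 384 h in Han/Wistar, stand where corn oil itself was lowest. At those times corn oil was -3.26 in Long-Evans and -3.54 in Han/Wistar livers, from the authors' deposited table, while the TCDD groups were at 10.83 and 10.54.

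On the OpenArray, Aldh3a1 varied widely among the vehicle groups and little among the late TCDD groups of Han/Wistar. Over the corn oil groups its SD was 2.60 log2 units in Long-Evans (3 groups), the largest of 49 targets, against a median of 0.14 over the targets. In Han/Wistar it was 2.77 (5 groups), the second largest after Cyp1b1, against a median of 0.21. Over the 100 µg/kg groups at 19 h and later the SD was 0.60 in Long-Evans (3 groups; median of targets 0.49) and 0.075 in Han/Wistar (4 groups; median of targets 0.27). In Han/Wistar only 1 target had a smaller late SD than Aldh3a1. The pattern was not particular to Aldh3a1. Cyp1a1, of the same gene battery, had a corn oil SD of 1.82 and a late SD of 0.092 in Han/Wistar. In Long-Evans its SDs were 1.13 and 0.12. These groups differ in time as well as in animals, so the values are a description of group values and not an error of measurement. How many cycles or amplified wells lie behind the low groups was not analysed here.

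**Figure D2:**
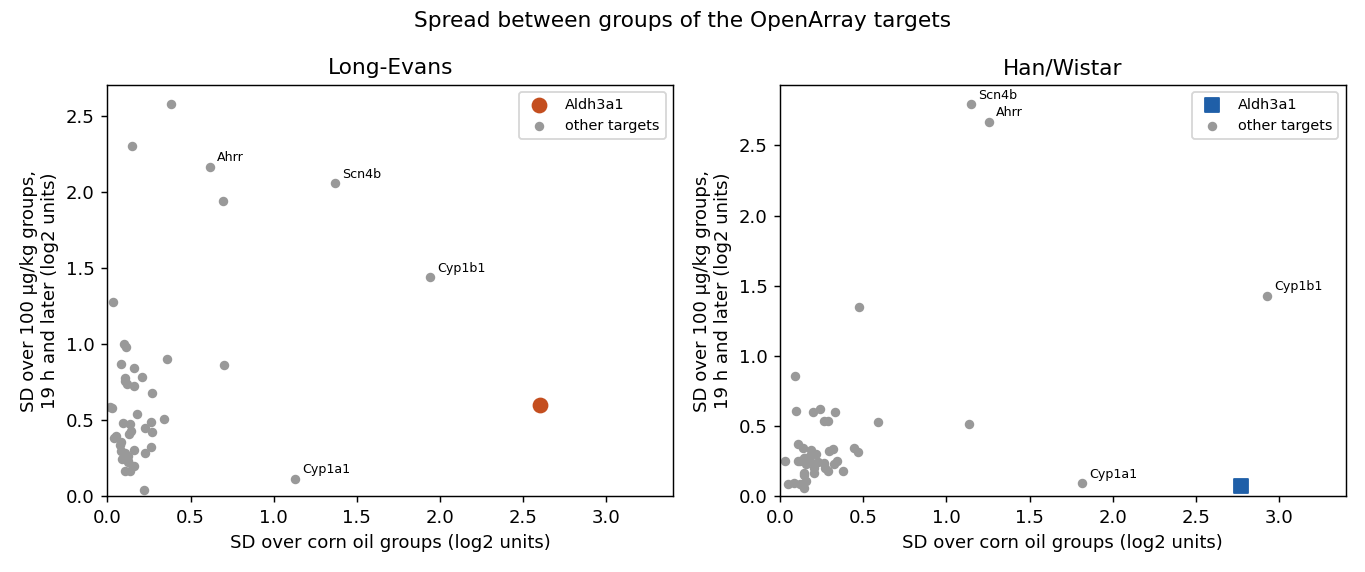
Spread of each OpenArray target over groups, in log2 units, for Long-Evans (left) and Han/Wistar (right): SD over corn oil groups on the x axis and SD over the 100 µg/kg groups from 19 h on the y axis. Aldh3a1 lies far to the right, at 2.60 and 2.77 on the x axis. On the y axis it is at 0.60 in Long-Evans, above the median target at 0.49, and at 0.075 in Han/Wistar, near the bottom.

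The strains were compared by subtracting the Han/Wistar value of each matched group from the Long-Evans value. On the OpenArray the difference was -7.20, -2.69, -1.95, -1.88, -0.54, -0.91 and -0.82 log2 units at 0.001, 0.01, 0.1, 1, 10, 100 and 1000 µg/kg. Long-Evans was thus lower at all 7 shared doses, most at the lowest. At 0.001 µg/kg the gap for Aldh3a1 was the widest of the 48 targets listed, with -6.10 in Long-Evans and 1.10 in Han/Wistar livers, from the authors' deposited table. The trend of the difference with dose had a rho of 0.89 over 7 groups (exact permutation p = 0.0123), while Pearson's r was 0.81 (exact permutation p = 0.00357), and 0.91 without the 2 doses farthest from the median. After adjustment over 48 targets it did not pass (adjusted exact permutation p = 0.295 for rho and 0.0857 for r), and 0% of targets were called. Each strain is set against its own corn oil group at 19 h, so an offset common to all doses and a strain difference in that corn oil group cannot be told apart.

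Over time at 100 µg/kg the OpenArray difference was -1.42, -1.16, -0.68, -0.91, -0.30 and 0.14 log2 units at 3, 6, 10, 19, 96 and 240 h. The corn oil groups differed between the strains by 0.50 at 96 h and by -5.89 at 240 h, in the same direction of subtraction. The mean over TCDD groups was -0.72 and that over corn oil groups -1.80, and the difference of 1.08 between them did not pass (exact permutation p = 0.571, adjusted p = 0.829). It was -0.97 without corn oil at 240 h (adjusted exact permutation p = 0.700), so its sign rested on that group. Again 0% of 49 targets were called, and the smallest p that the 84 splits allow is 0.0119.

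On the OpenArray, Aldh3a1 needed a higher dose than Cyp1a1 to stand above its vehicle range. Cyp1a1 encodes the P450 enzyme used as the standard marker of AHR activity, and its corn oil groups reached at most 2.16 in Long-Evans and 3.47 in Han/Wistar by the authors' deposited table. At 0.1 µg/kg Aldh3a1 was at -2.46 and Cyp1a1 at 6.45 in Long-Evans livers, from the authors' deposited table. In Han/Wistar at that dose Aldh3a1 was at -0.51 and Cyp1a1 at 7.02 in the authors' deposited table. Cyp1b1 and Tiparp, of the same battery, also stood under their highest corn oil group at 0.1 µg/kg in both strains. Cyp1a2 and Nqo1 stood above theirs. At 1 µg/kg the values in the authors' deposited table were 3.57 for Aldh3a1 and 8.66 for Cyp1a1 in Long-Evans, and 5.45 for Aldh3a1 and 9.46 for Cyp1a1 in Han/Wistar. At 100 µg/kg the genes were close, at 9.64 and 9.47 in Long-Evans and at 10.54 and 9.99 in Han/Wistar, with Aldh3a1 first, in the authors' deposited table. Whether the dose curves of the genes differ was not tested.

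Cyp1b1 encodes a P450 enzyme that oxidises oestradiol and polycyclic hydrocarbons. On the OpenArray Cyp1b1 had a dose curve of much the same height as that of Aldh3a1 in Long-Evans. At 0.001, 0.01, 0.1, 1 and 10 µg/kg it stood at -3.11, -3.72, -2.17, 3.81 and 7.24 in Long-Evans livers, from the authors' deposited table, so it too was below 0 at the 3 lowest doses. In Han/Wistar it was at 2.93, -0.90 and 1.95 at those 3 doses, by the authors' deposited table, where Aldh3a1 was at 1.10, -2.86 and -0.51. In time Aldh3a1 stood higher at first, at 6.41 against 2.81 for Cyp1b1 at 3 h in Long-Evans livers, from the authors' deposited table. The genes were level at 19 h, at 9.64 for Aldh3a1 and 9.60 for Cyp1b1, and at 240 h Aldh3a1 was the lower, at 10.83 against 12.28, in Long-Evans livers, from the authors' deposited table. In Han/Wistar at 3 h Aldh3a1 was at 7.83 and Cyp1b1 at 4.60 in the authors' deposited table.

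**Figure D3:**
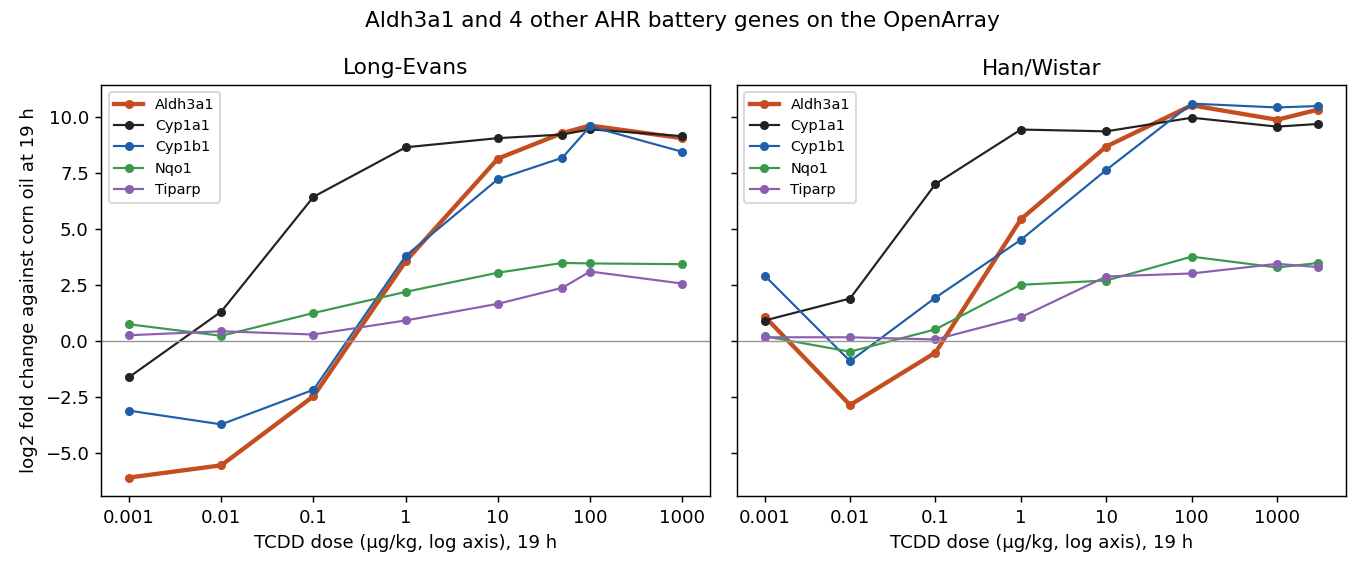
Log2 fold change against corn oil at 19 h by TCDD dose on the OpenArray, for Aldh3a1, Cyp1a1, Cyp1b1, Nqo1 and Tiparp in Long-Evans (left) and Han/Wistar (right). At 0.1 µg/kg Aldh3a1 is at -2.46 and -0.51 while Cyp1a1 is at 6.45 and 7.02, and at 100 µg/kg the 2 genes lie within 1 log2 unit of each other.

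By Pearson's r over all groups of a strain (16 in Long-Evans and 20 in Han/Wistar), averaged over the strains, the 5 OpenArray targets most like Aldh3a1 were Cyp1b1, Ube4b, Ccbl1, Nqo1 and Tiparp. For Cyp1b1 r was 0.95 in Long-Evans and 0.91 in Han/Wistar, and for Ube4b, a ubiquitin ligase, it was 0.91 and 0.95. For Ccbl1, a cysteine conjugate lyase, it was 0.89 and 0.94. For Nqo1, a quinone reductase, r was 0.89 and 0.94, and for Tiparp, an ADP-ribosyltransferase that represses AHR, it was 0.90 and 0.89. The size of the response differed widely among them, since at 100 µg/kg and 19 h Ube4b was at 1.55 in Long-Evans, with 1.03 in Han/Wistar livers, from the authors' deposited table. All groups of a strain are set against 1 corn oil group and share the dose and time series, so these are descriptions. By Spearman's rho 2 of the 5 stayed among the 5 most alike.

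Of the list of 16 other AHR battery genes, chosen with earlier results of these data known, 11 were measured on both platforms. In the dose arm of the OpenArray 7 of the 11 rose with dose in Long-Evans (Cyp1a1, Cyp1b1, Nqo1, Tiparp, Ahrr, Nfe2l2 and Exoc3), 3 fell (Ugt1a1, Fmo1 and Inmt) and 1, Cyp1a2, did not pass. In Han/Wistar 5 rose, the same 3 fell and 3 did not pass, namely Cyp1a2, Ahrr and Exoc3. Of all 49 targets 53.1% were called higher and 26.5% lower in Long-Evans, and 38.8% higher and 20.4% lower in Han/Wistar, so the shares of the list in this arm lie near those of all targets. The median rho of the list was 0.88 in Long-Evans and 0.76 in Han/Wistar, against 0.79 and 0.64 over all targets. In the time arm 6 of the 11 rose and 0 fell in Long-Evans, and 8 rose and 1 (Inmt) fell in Han/Wistar, beside 30.6% of all targets called higher in Long-Evans, 53.1% in Han/Wistar and 2.04% called lower in either strain. With each group centred on the median of its targets the dose counts of the list were 7 up and 3 down in Long-Evans. In Han/Wistar they were 4 up and 3 down, where Cyp1a1 did not pass. Of all 49 targets 17 were then called higher and 17 lower in Long-Evans, and 14 higher and 17 lower in Han/Wistar. In the time arm of Han/Wistar the list counts were 8 up and 2 down on the median, with Ugt1a1, a glucuronosyltransferase, added to Inmt. On the mean they were 6 up and 3 down, with Fmo1 added and Nfe2l2 and Exoc3 lost. All 49 targets split there into 16 higher and 12 lower on the median, and 8 and 27 on the mean. For the list in Long-Evans the time arm had 6 up and 0 down on the median, and 5 up and 1 down (Ugt1a1) on the mean. All targets split there into 11 higher and 7 lower on the median, and 9 and 19 on the mean. Nqo1 stood at 0.75, 0.24, 1.26, 2.20, 3.06, 3.49, 3.47 and 3.44 at rising dose in Long-Evans livers, from the authors' deposited table, a far smaller range than that of Aldh3a1. On the 7900HT 0 of the 11 passed the dose test in Long-Evans and 1, Cyp1b1, rose in Han/Wistar. Of all 39 targets 0% were called by dose in Long-Evans, and 2.56% higher and 0% lower in Han/Wistar. Centred on the median, Exoc3 rose with dose in Long-Evans, where 1 of all targets was called higher and 2 lower. With either centring Cyp1b1 rose and Fmo1 fell in Han/Wistar, where 2 of all targets were called higher and 4 lower. In the 7900HT time arm 0 of the list passed in Long-Evans, where 0% of all targets were called. In Han/Wistar 4 rose (Cyp1a1, Cyp1a2, Cyp1b1 and Nqo1) and 1 (Inmt) fell, beside 15.4% of all targets called higher and 20.5% lower there. With either centring of the time arm 3 of the list passed as higher (Cyp1a1, Cyp1a2 and Tiparp) and 1 as lower (Ugt1a1) in Long-Evans. Of all targets there 4 were called higher and 6 lower. On the median Inmt did not pass in Han/Wistar, where 9 of all targets were called higher and 11 lower. On the OpenArray Ahr, the receptor, rose with dose in Long-Evans with a rho of 0.76 (adjusted exact permutation p = 0.0462). It did not pass in Han/Wistar (rho 0.57, adjusted exact permutation p = 0.168), and with centred groups it passed in neither strain. In the OpenArray time arm Ahr rose in Han/Wistar, by 0.58 log2 units (adjusted exact permutation p = 0.0281). In Long-Evans its difference of 0.72 did not pass (adjusted exact permutation p = 0.312), and centred groups gave a call in neither. Whether the strains differ for Ahr was not tested. No member of a list of 12 other aldehyde dehydrogenases was measured, so Aldh3a1 cannot be set beside its own family here.

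In bulk liver, fewer cells of a type and less RNA per cell cannot be told apart. Of 20 listed markers of liver cell types only Mug1, a hepatocyte protease inhibitor, was measured, on the OpenArray. It ranged from -1.36 to 0.21 over TCDD groups and from 0 to 0.65 over corn oil groups in Long-Evans livers, from the authors' deposited table. In Han/Wistar it ranged from -1.99 to 0.37 over TCDD groups and from -0.53 to 0 over corn oil groups in the authors' deposited table. Its dose trend did not pass in either strain (rho -0.71, adjusted exact permutation p = 0.0656 in Long-Evans, and rho -0.62, adjusted p = 0.137 in Han/Wistar). Its part in the values of Aldh3a1 was not tested, and relative values cannot show whether the tissue holds its defining transcripts.

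On the 7900HT the Aldh3a1 values were lower than on the OpenArray in all groups at 10 µg/kg or more, while some groups of low dose or corn oil were higher. In Long-Evans they were 5.21, 5.97, -8.26, -3.24, 3.51, 4.35, 1.33 and 4.90 log2 units at 0.001, 0.01, 0.1, 1, 10, 50, 100 and 1000 µg/kg in the authors' deposited table. The 2 lowest doses there stood above every higher dose. In Han/Wistar they were -4.15, -8.13, -3.25, -1.06, 3.12, 5.09, 2.63 and 6.70 log2 units at 0.001, 0.01, 0.1, 1, 10, 100, 1000 and 3000 µg/kg in the authors' deposited table. The Han/Wistar values were below 0 up to 1 µg/kg and above 0 from 10 µg/kg. The trend with dose in Long-Evans had a rho of -0.21 (exact permutation p = 0.619, adjusted p = 0.690; Pearson r 0.083, exact permutation p = 0.849, adjusted p = 0.867, and 0.21 without the 2 farthest doses). In Han/Wistar the rho was 0.90 (exact permutation p = 0.00456, adjusted p = 0.0890; Pearson r 0.91, exact permutation p = 0.00303, adjusted p = 0.0590, and 0.91 without the 2 farthest doses). Neither passed after adjustment over 39 targets, of which 0% were called in Long-Evans in either direction, and 2.56% were called higher and 0% lower in Han/Wistar. In Han/Wistar the trend passed when each group was centred on the median of its targets (rho 0.95, adjusted exact permutation p = 0.0148), on the mean (0.0445), or when adjusted over both strains and platforms (0.0211).

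The time course on the 7900HT had values of -1.10, -0.32, 1.85, 1.33, 1.26 and 4.28 log2 units at 3, 6, 10, 19, 96 and 240 h of 100 µg/kg in Long-Evans livers, from the authors' deposited table. Corn oil at 19, 96 and 240 h was at 0, -6.76 and 1.82 in Long-Evans livers, from the authors' deposited table, and the groups overlapped. In Han/Wistar the TCDD groups were at 1.61, 7.50, 7.35, 3.85, 5.09, 5.99, 8.35 and 2.38 log2 units at 1.5, 3, 6, 10, 19, 96, 240 and 384 h in the authors' deposited table. Corn oil at 1.5, 19, 96, 240 and 384 h was at 0.26, 0, -4.40, 1.31 and 23.00 in Han/Wistar livers, from the authors' deposited table. All 8 TCDD groups stood above the first 4 of these corn oil groups, and all stood below the one at 384 h. That value of 23.00 was the largest in size of the whole 7900HT table, both strains and 39 targets included, while the median of the targets in that group was 0.42 in the authors' deposited table. The Aldh3a1 value of the same labelled group on the OpenArray was -3.54 in the authors' deposited table. By the labels that group holds a replicate on the 7900HT that it lacks on the OpenArray.

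With all groups, the mean of the TCDD groups on the 7900HT was 1.22 and that of corn oil -1.64 in Long-Evans, a difference of 2.86 log2 units (exact permutation p = 0.238, adjusted p = 0.344). In Han/Wistar the means were 5.27 for TCDD and 4.04 for corn oil, a difference of 1.23 (exact permutation p = 0.805, adjusted p = 0.872). Without corn oil at 384 h the Han/Wistar difference was 5.97, which passed (exact permutation p = 0.00404, adjusted p = 0.0315), and without corn oil at 96 h it was -0.88 (adjusted exact permutation p = 0.891). With all groups 15.4% of targets were called higher and 20.5% lower in Han/Wistar, and 0% in Long-Evans. Among pairs of TCDD and corn oil taken at 1 time, all 3 Long-Evans pairs were higher in TCDD, by 1.33, 8.02 and 2.46 log2 units at 19, 96 and 240 h. In Han/Wistar 4 of 5 pairs were higher, by 1.35, 5.09, 10.39 and 7.04 at 1.5, 19, 96 and 240 h, and the pair at 384 h differed by -20.62.

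**Figure D4:**
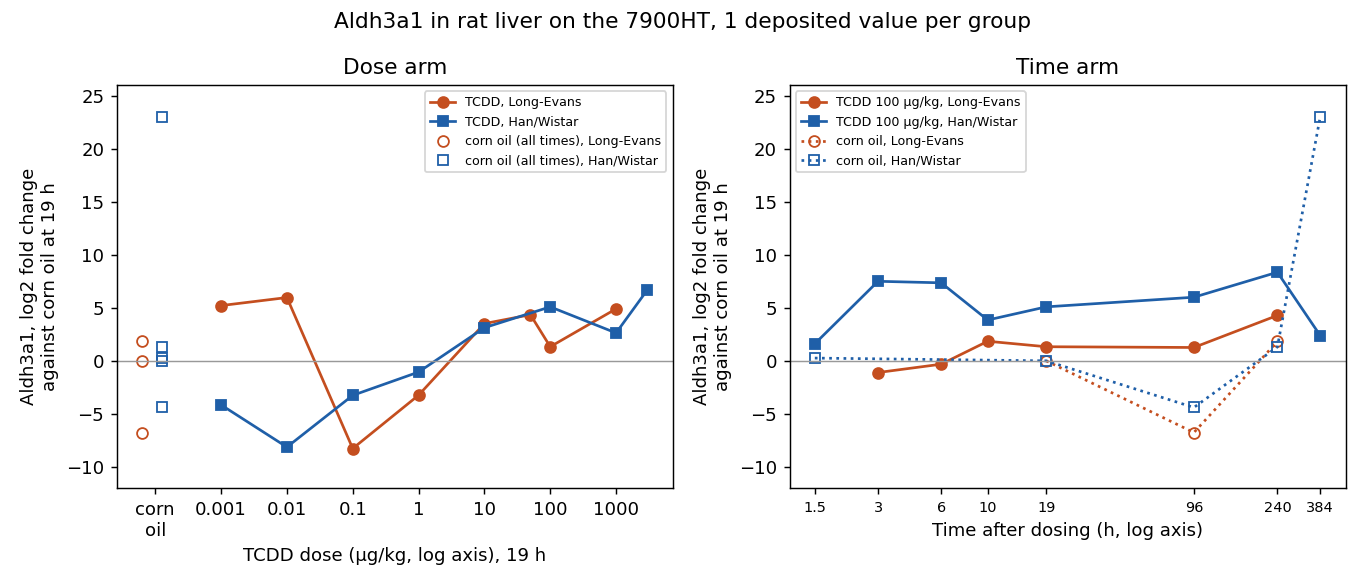
Aldh3a1 on the 7900HT, as log2 fold change against the strain's own corn oil group at 19 h, with 1 point per group, by dose at 19 h (left, corn oil groups of all times at the low end) and by time (right). The Han/Wistar corn oil group at 384 h stands at 23.00, far above all other points, and the Long-Evans groups at 0.001 and 0.01 µg/kg stand above those at higher doses.

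The strain difference on the 7900HT, Long-Evans minus Han/Wistar, was 9.36, 14.09, -5.01, -2.18, 0.39, -3.76 and 2.27 log2 units at 0.001, 0.01, 0.1, 1, 10, 100 and 1000 µg/kg. Its trend had a rho of -0.36 over 7 groups (exact permutation p = 0.444, adjusted p = 0.874) while Pearson's r was -0.56 (exact permutation p = 0.201, adjusted p = 0.994), and -0.62 without the 2 farthest doses. At 100 µg/kg Long-Evans was lower at all 6 shared times, by a difference of -8.60, -7.67, -2.00, -3.76, -4.74 and -4.07 at 3, 6, 10, 19, 96 and 240 h. Set against the strain differences of the corn oil groups, the mean difference was -4.52 (exact permutation p = 0.0595, adjusted p = 0.211), and 0% of targets were called in either strain test. On the OpenArray the same quantity was 1.08, or -0.97 without corn oil at 240 h, and neither platform's value passed. The mean strain difference over the TCDD groups alone was -5.14 on the 7900HT and -0.72 on the OpenArray.

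The platforms were set side by side group by group, as 7900HT minus OpenArray. In the 9 Long-Evans groups at 10 µg/kg or more the 7900HT was lower in all 9, by a median difference of -6.77 and a range of -8.99 to -4.17 log2 units. Of the 11 Han/Wistar groups that received at least 10 µg/kg it was lower in all 11, by a median of -4.55 and a range of -8.16 to -0.33. The median value of these groups was 1.85 on the 7900HT and 9.07 on the OpenArray in Long-Evans, and 5.09 on the 7900HT and 9.89 on the OpenArray in Han/Wistar. A shift of this kind holds the platform's own corn oil group at 19 h within it, since both tables subtract that group. In Han/Wistar the labels list a replicate of that corn oil group on the 7900HT alone. Below 1 µg/kg the difference was 11.30, 11.52 and -5.80 at 0.001, 0.01 and 0.1 µg/kg in Long-Evans. In Han/Wistar it was -5.25, -5.27 and -2.74 at the same doses. The corn oil SD of Aldh3a1 was the largest of 39 targets on the 7900HT in both strains (4.52 in Long-Evans, 10.83 in Han/Wistar), against medians of 0.74 and 0.97. Aldh3a1 has 4 rows in the table of cycle values of the 7900HT and 2 in that of the OpenArray.

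**Figure D5:**
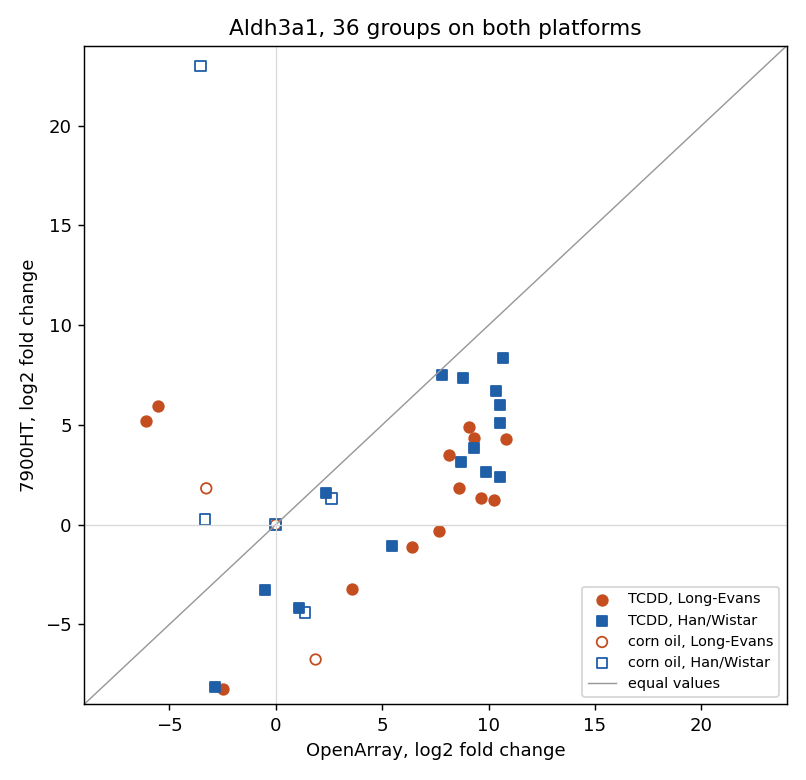
Aldh3a1 log2 fold change on the 7900HT (y axis) against the OpenArray (x axis), 1 point per group, with filled points for TCDD, open points for corn oil and a line of equal values. All 20 points of the groups at 10 µg/kg or more lie under the line. The Han/Wistar corn oil group at 384 h lies at 23.00 on the 7900HT and -3.54 on the OpenArray. By the labels that corn oil group holds a replicate on the 7900HT that it lacks on the OpenArray.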

How the data were processed

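Reverse-transcribed liver RNA was assayed on either platform, as the labels' protocols describe. The deposited fold change tables hold 1 value, taken as log2, per gene in a group, computed by the authors with the strain's corn oil group at 19 h as the reference, where the value is 0 for all targets. Reference genes, wells without amplification and averaging over rats are steps the sources used here do not describe, and R 2.12.2 was used per the submitters' processing notes. The deposited tables of cycle values were read for gene and assay names alone. Their 304 columns of values (unit other, with names only read here) carry animal codes that match no label and were not used, so depth and the spread between animals are unknown. A trailing _pr was removed from gene names.

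Dose trends at 19 h used Spearman's rho, compared with its value in each of 40320 orders (5040 for the strain difference). Time courses used the difference of means with all ways of dividing the groups, 1287 in Han/Wistar and 84 in Long-Evans. All tests were two-sided, covered every target of a platform (a trend needed 6 groups), and used Benjamini-Hochberg adjustment with a threshold of 0.05. Aldh3a1 entered 12 comparisons, and the routines were tested on simulated data first. The planned limma fits were not possible with 1 value per group. Alternatives were centring, joint adjustment, Pearson's r, other corn oil sets, medians and leaving out groups. Named genes were Aldh3a1, the measured members of the lists, and the 5 targets most like Aldh3a1 on the OpenArray. On the 7900HT the 5 were Tiparp, Nqo1, Nfe2l2, Cyp1a2 and Ahr, with a mean r of 0.35 to 0.55. Members and lists were chosen with earlier results of these data known. Software was matplotlib 3.10.9, pandas 2.3.3, scipy 1.17.1, numpy 2.4.6 and Python 3.11.15.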

Additional observations from a re-analysis of the deposited data

Results flagged for a closer look

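The Han/Wistar corn oil group at 384 h stood apart from the other 4 corn oil groups of Aldh3a1 on the 7900HT. Its value was 23.00 log2 units in the authors' deposited table, and the next highest corn oil group was at 1.31. The gap of 21.70 is 0.79 of the range of the 5 groups, above Dixon's critical value of 0.71. The points compared are groups at different times, not animals of 1 group. The group at 19 h is 0 by construction, and the other 4 are ratios to it. Dixon's value is set for independent draws, where about 1 in 20 sets would stand out by chance, and that rate need not hold here. On the OpenArray the 5 groups of the same labels did not stand out (share of the gap 0.20 at the top and 0.035 at the bottom). The labels list fewer replicates there for some of them, the group at 384 h included. The cause was not tested.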

How the results depend on the processing

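No paired analysis was possible because the deposited values are 1 per group and the columns per animal match no replicate number. Of the 4 OpenArray calls, the Long-Evans dose trend passed under every alternative run, and the other 3 were each lost under at least 1. The Han/Wistar dose trend was lost without 0.01, 0.1, 1 or 10 µg/kg. In Long-Evans the time course of 9.36 did not pass without corn oil at 19 h (9.60), with times that have corn oil only (10.70, where 3 against 3 groups cannot give an exact permutation p under 0.10) or as a difference of medians (9.13). In Han/Wistar the difference of medians was 9.92 (adjusted exact permutation p = 0.0544). Leaving out 1 group, the dose trend stayed between 0.89 and 1.00 in Long-Evans and between 0.79 and 0.89 in Han/Wistar, and the time course between 7.96 and 10.53 and between 8.66 and 10.33. On the 7900HT the Han/Wistar dose trend passed when centred on the median (0.95) or mean (0.90) or adjusted jointly (0.90), and lay between 0.86 and 0.96 without 1 group. The Long-Evans dose trend of -0.21 turned to 0.14 when centred on the median, 0.083 as Pearson's r and 0.033 with corn oil as the lowest dose, and lay between -0.36 and 0.14 without 1 group. The time course lay between -0.88 and 5.97 in Han/Wistar and between 0.30 and 4.59 in Long-Evans. The strain difference over times lay between -0.97 and 2.22 on the OpenArray and between -5.40 and -3.83 on the 7900HT, and that over doses between 0.83 and 1.00 and between -0.54 and -0.029. For the genes most alike, Spearman's rho kept 2 of the 5 on the OpenArray. Of 58 results under another setting 48 kept direction and side of the threshold, and of 108 without 1 group 92 did. Both totals include uncalled results that stayed uncalled, and leaving out corn oil at 19 h enters both. Without 1 group, the OpenArray dose call was kept in 8 of 8 runs in Long-Evans and 4 of 8 in Han/Wistar. The time call was kept in 2 of 9 runs in Long-Evans and 13 of 13 in Han/Wistar. Centring changed how the calls over all OpenArray targets split. In the dose arm the split of 26 higher and 13 lower in Long-Evans was 17 and 17 on the median and 9 and 21 on the mean, and that of 19 and 10 in Han/Wistar was 14 and 17, and 8 and 20. In the time arm 15 and 1 in Long-Evans became 11 and 7, and 9 and 19, and 26 and 1 in Han/Wistar became 16 and 12, and 8 and 27. On the 7900HT the time arm of Long-Evans had 0 calls as deposited and 4 higher and 6 lower with either centring, and the dose arm of Han/Wistar 1 and 0 as deposited and 2 and 4. The Long-Evans dose arm there had 1 and 2 on the median. List counts under centring were chosen after seeing the data. Apart from the settings named here, the cause of a lost call was not tested.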
